A study of Mus musculus with 6 samples.

Results

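Chemokines and their receptors were described in the spleens of female NOD mice, an inbred strain that develops autoimmune diabetes. The members were the probe sets assigned to 1 gene whose symbol is Ccl, Cxcl, Ccr or Cxcr followed by a number and at most 1 letter. This rule found 69 probe sets of 45 genes, 31 ligands and 14 receptors, among 45037 probe sets of 18193 genes. Where a gene had several, the one with the highest mean level was used. Levels are log2 RMA values, so that a difference of 1 is a doubling, and levels of different probe sets were not compared. Of the lymphoid homing genes, Cxcl13, Ccr7 and Cxcr5 are members, whereas Ccl19 and Ccl21a share their probe sets with other genes and are given apart.

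Splenocyte RNA of untreated non-diabetic, untreated diabetic and trichostatin A (TSA)-treated mice was hybridized, with 2 arrays a group. TSA inhibits histone deacetylases; the labels give weekly subcutaneous injections of 500 µg/kg from 18 to 24 weeks of age. All mice were females of 32 to 36 weeks per the labels, whereas the methods give younger diabetic and treated mice. The treated group holds cured mice only, since treated mice that stayed diabetic were left out of it. Each group was 1 RNA pool, of 3 to 5 mice per the labels and of slightly more per the methods, that was labeled in duplicate. The arrays of a group were therefore technical duplicates of 1 pool, and every p-value here measures their spread and not that between mice.

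Both treated arrays had a wider gap between RNA ends than all other arrays, and TSA-treated replicate 2 had the widest. The beta-actin signal at the 3′ end exceeded that at the 5′ end by 5.61 on that array, by 3.45 on the other treated array, by 2.42 and 3.32 on the diabetic and by 2.35 and 2.05 on the untreated non-diabetic arrays. For Gapdh the gap was 3.85 and 4.58 on the treated, 1.82 and 3.19 on the diabetic and 2.67 and 1.91 on the untreated non-diabetic arrays. Values given below without TSA-treated replicate 2 therefore still rest on a treated array with a wider gap than the untreated arrays. The difference between duplicates had an SD over the 45 members of 0.170 for the untreated non-diabetic pool, 0.478 for the diabetic pool and 0.669 for the treated pool. Some arrays resembled another group more than their own duplicate. Over all probe sets, TSA-treated replicate 1 correlated at 0.990 with diabetic replicate 2 and at 0.966 with its duplicate. Diabetic replicate 1 correlated at 0.987 and 0.985 with the untreated non-diabetic arrays and at 0.973 with its duplicate. Cell markers differed too: the summed linear level of 7 B cell markers was 8739 and 8776 on the untreated non-diabetic, 7919 and 7932 on the diabetic and 5385 and 2545 on the treated arrays. Those of 7 exocrine pancreas markers, which a spleen should lack, summed to 258 and 241, 20680 and 21210, and 3402 and 2755. In a bulk sample, fewer cells of a type and less RNA per cell cannot be told apart.

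Chemokines are small secreted proteins that bind G protein-coupled receptors and direct the migration of leukocytes along their gradients. In the spleen, stromal cells make CXCL13, CCL19 and CCL21: CXCL13 draws CXCR5-bearing B cells into follicles, whereas CCL19 and CCL21 hold CCR7-bearing T cells and dendritic cells in the T cell zone. Inflammatory ligands are induced instead, CXCL9, CXCL10 and CXCL11 by interferon for cells with CXCR3, and others for monocytes and neutrophils.

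The 250 bases before the transcription start are shown for Cxcl9 and Cxcl10, neighbouring interferon-induced ligands with higher levels on both diabetic arrays, for Cxcl13, the B cell ligand with lower levels on both treated arrays, and for Ccr6, the receptor with the largest difference of any member. They are RefSeq sequence of GRCm38.p6, 5′ to 3′ on the strand of the gene, and lie at chr5:92328080-92328329 (minus), chr5:92348890-92349139 (minus), chr5:95956689-95956938 (plus) and chr17:8235793-8236042 (plus), in that order. Capitals mark TATAAA in Cxcl9 and Cxcl13, the core of an interferon-stimulated response element (GAAA repeated after a gap of 2 bases) and the NF-kappaB motif, 2 of whose 3 matches overlap, in Cxcl10, and TTCNNNGAA (the core of a gamma-activated site) in Ccr6, for which the first of 2 listed starts is shown.
Cxcl9: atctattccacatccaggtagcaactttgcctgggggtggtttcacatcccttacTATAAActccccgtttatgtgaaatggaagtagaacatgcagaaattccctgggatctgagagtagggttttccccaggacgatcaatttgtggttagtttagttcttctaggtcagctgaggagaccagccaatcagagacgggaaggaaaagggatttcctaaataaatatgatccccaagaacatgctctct
Cxcl10: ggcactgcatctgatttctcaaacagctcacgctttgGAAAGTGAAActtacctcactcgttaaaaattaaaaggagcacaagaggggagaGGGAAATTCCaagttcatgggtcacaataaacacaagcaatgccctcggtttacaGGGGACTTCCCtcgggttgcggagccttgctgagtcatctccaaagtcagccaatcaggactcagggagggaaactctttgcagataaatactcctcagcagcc
Cxcl13: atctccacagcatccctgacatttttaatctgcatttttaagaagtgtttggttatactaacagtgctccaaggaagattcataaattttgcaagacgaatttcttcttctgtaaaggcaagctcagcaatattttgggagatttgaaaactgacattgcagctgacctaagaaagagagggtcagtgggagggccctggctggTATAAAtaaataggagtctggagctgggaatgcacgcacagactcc
Ccr6: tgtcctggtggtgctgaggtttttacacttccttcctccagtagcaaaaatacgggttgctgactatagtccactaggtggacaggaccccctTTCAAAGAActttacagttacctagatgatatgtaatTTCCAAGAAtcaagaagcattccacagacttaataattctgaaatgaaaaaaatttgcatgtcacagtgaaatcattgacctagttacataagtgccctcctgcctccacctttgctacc
Both strands were searched. TATAAA was in 12.4% of 32851 mouse promoters of this length, the response element core in 2.98%, the NF-kappaB motif in 7.25% and TTCNNNGAA in 7.02%. Of the 32 members with a listed promoter, 9, 2, 10 and 3 held them. A member was counted if any of its listed starts had a match, whereas the shares are per promoter, so counts and shares differ in unit. Ccr6 counts for the NF-kappaB motif only through its second start, which is not shown. The match is one of letters and shows no binding.

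Group means of the members ran from 2.42 to 11.05. Of the 45, 28 had a mean above that of the median probe set (3.89 over the 6 arrays), which 50% of all probe sets exceed by construction, and 9 had a mean over 7: Cxcl13, Cxcl12, Ccl5, Cxcr4, Ccl6, Cxcr5, Cxcl9, Ccr7 and Ccr6. The other 17, among them Ccl2, Ccl3, Ccr4, Cxcr2 and Cxcl11, lay at or below the median probe set, where a change is compressed toward the background.

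**Figure D1:**
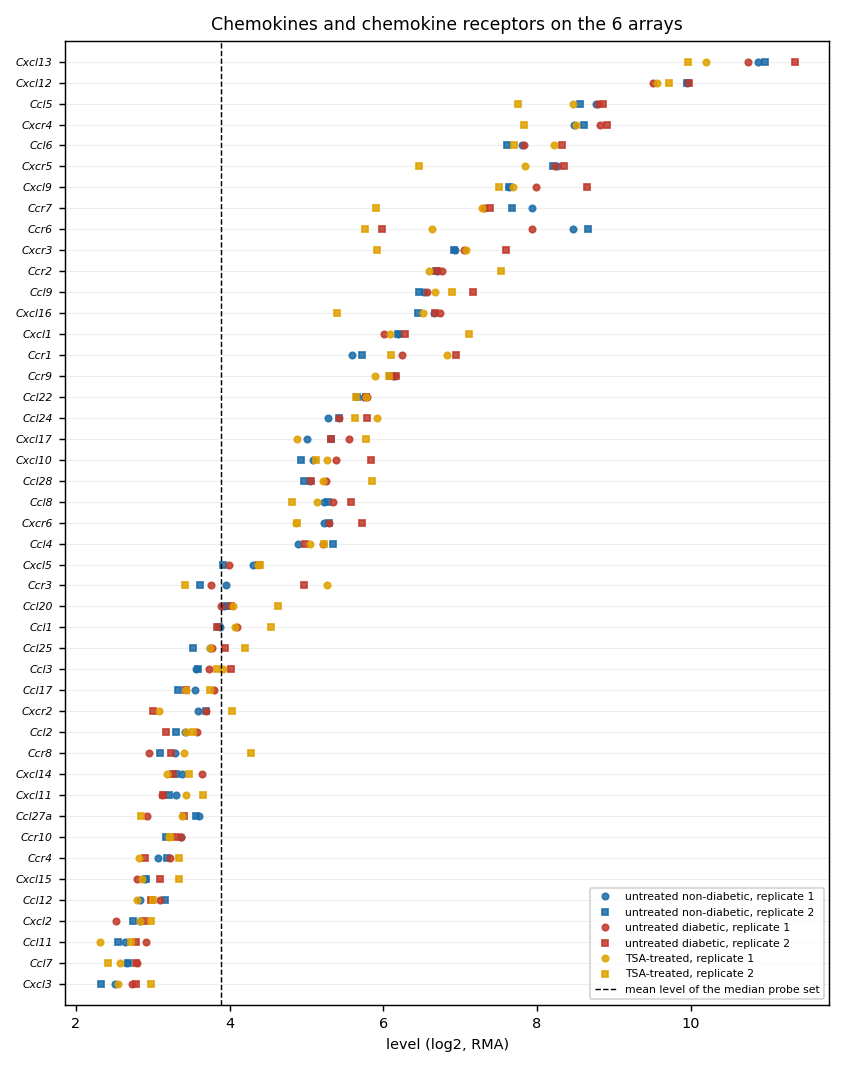
Level of the 45 members (x axis, log2 RMA) on each of the 6 arrays, with genes ordered by their mean; color gives the group, the symbol the replicate, and the dashed line the mean level of the median probe set. Points of 1 gene lie close together for most members, and the wide rows (Ccr6, Ccr7, Cxcr5, Ccr3, Cxcr3) are those where TSA-treated replicate 2 or diabetic replicate 2 lies away from its duplicate.

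None of the 45 members passed limma's test at an adjusted p under 0.05 in any comparison. In diabetic against untreated non-diabetic mice limma called 0 members, where 0.0888% of all probe sets were called. At an unadjusted p under 0.05 it had 4 members (6.27% of all probe sets), of which Cxcl9, Cxcl10 and Ccr1 were higher and Ccr6 lower in diabetic mice. The local pooled error (LPE) test that the methods name, adjusted over all probe sets, called 0 (0.477% of all), and the methods' t-test had 1 member at an unadjusted p under 0.05 (5.92% of all) and 0 after adjustment. Between TSA-treated and untreated non-diabetic mice limma called 0 (0.0688% of all), with 4 at an unadjusted p under 0.05 (14.7% of all, 8.34% lower), Cxcl13, Cxcr5, Ccr7 and Ccr6, each of them lower in treated mice. LPE called 1 there, Ccr6 (1.59% of all), and the t-test had 4 before (11.6% of all) and 0 after adjustment.

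Between untreated diabetic and TSA-treated mice limma again called 0 (0.0266% of all), with 8 at an unadjusted p under 0.05 (4.27% of all). Cxcl13, Cxcr5, Ccl5, Cxcr4, Cxcl9, Ccl8 and Cxcr6 were higher in diabetic mice, and Cxcl11 was lower. LPE called 0 (0.115% of all), and the t-test had 0 before (3.02% of all) and after adjustment. The moderated F test over the 3 groups called 0 (0.0933% of all), with Cxcl13, Cxcl9, Ccr6 and Cxcr6 at an unadjusted p under 0.05 (9.53% of all). The lowest limma adjusted p of any member was 0.777, 0.203 and 0.902 in the 3 comparisons.

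The direction of the members was described by the arrays that did not overlap between groups. Both diabetic arrays lay above both untreated non-diabetic arrays for 19 members (42.2%; 21.6% of all probe sets) and below for 4 (8.89%; 19.4% of all). Both treated arrays lay above both untreated non-diabetic arrays for 13 members (28.9%; 26.3% of all) and below for 11 (24.4%; 21.5% of all). Both diabetic arrays lay above both treated arrays for 15 (33.3%; 11.4% of all) and below for 3 (6.67%; 16.2% of all). The median difference over the members was 0.11, 0.02 and 0.09 in these comparisons, and 0.01, 0.05 and -0.02 over all probe sets. Over all genes at their brightest probe set, as used for the members, it was 0.04, 0.07 and -0.02. Of these genes 25.5% lay above and 17.5% below in the first comparison, 29.9% and 19.6% in the second, and 12.4% and 16.2% in the third. Among probe sets with a mean over 7, 36.4% lay above and 20.4% below in the first comparison. The comparisons share groups, so they are not independent of each other.

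**Figure D2:**
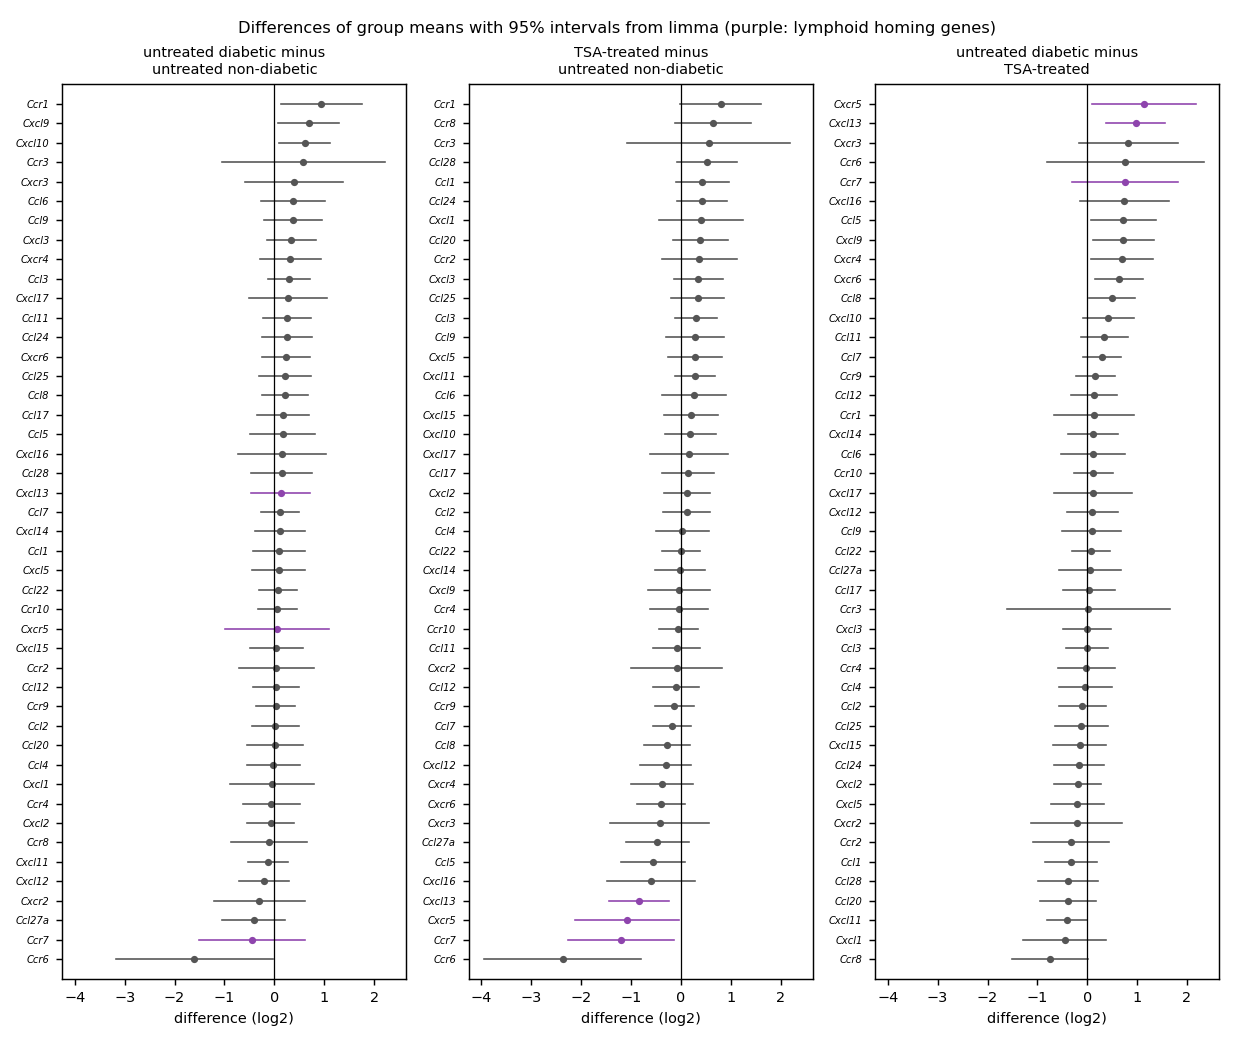
Difference of group means (x axis, log2) of each member in the 3 comparisons, with the 95% interval from limma as a line and the homing members in purple. The homing members sit at the low end of the middle panel, between -1.21 and -0.84, and Ccr6 lies at the end of it at -2.37; intervals are not adjusted for the number of genes.

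The homing members were lower in TSA-treated mice, and less so or not at all in diabetic mice. Cxcl13, the follicular B cell ligand, read 10.88 and 10.96 on the untreated non-diabetic arrays, 10.74 and 11.35 on the diabetic and 10.20 and 9.96 on the treated arrays. Both treated arrays lay below all 4 others, whereas the untreated groups overlapped. The difference between treated and untreated non-diabetic mice was -0.84 (SE 0.24, 95% interval -1.44 to -0.25, limma adjusted p = 0.218), and that between diabetic and treated mice was 0.97 (limma adjusted p = 0.902). It was -0.72 without TSA-treated replicate 2. A second, dimmer Cxcl13 probe set read 7.96 and 8.19, 8.22 and 8.82, and 7.83 and 6.73, again with both treated arrays the lowest.

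Cxcr5, its receptor on B cells and follicular helper T cells, read 8.26 and 8.21 on the untreated non-diabetic, 8.23 and 8.35 on the diabetic and 7.84 and 6.47 on the treated arrays. The treated arrays were again below all others, but TSA-treated replicate 2 carried most of the difference. The difference from untreated non-diabetic mice was -1.08 (SE 0.43, limma adjusted p = 0.327). It was -0.39 without TSA-treated replicate 2 and -1.76 without TSA-treated replicate 1.

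Ccr7, which brings T cells and dendritic cells to the T cell zone, read 7.94 and 7.68, 7.32 and 7.39, and 7.29 and 5.91 on the arrays in the same order. Both diabetic arrays lay below both untreated non-diabetic arrays (difference -0.45, SE 0.43, limma adjusted p = 0.988) and both treated arrays were lower still (-1.21 from untreated non-diabetic mice, SE 0.43, limma adjusted p = 0.288). Without TSA-treated replicate 2 the latter was -0.52, close to that of diabetic mice, and without TSA-treated replicate 1 it was -1.90. The median over the 3 homing members was 0.05, -1.08 and 0.97 in diabetic over untreated non-diabetic, treated over untreated non-diabetic and diabetic over treated mice, against 0.11, 0.12 and 0.06 over the other 42. Without TSA-treated replicate 2 the homing median of treated over untreated non-diabetic mice was -0.52.

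The probe sets that list the T cell zone ligands had the same order of groups as Ccr7, though neither can be given to 1 gene. One that lists Ccl19 among 10 genes read 9.78 and 9.46 on the untreated non-diabetic, 9.02 and 9.15 on the diabetic and 8.74 and 8.46 on the treated arrays. One that lists Ccl21a, Ccl21b, Ccl21c and Ccl21d among 9 genes read 9.43 and 9.49, 8.94 and 8.87, and 8.52 and 7.35. In both, the 3 groups did not overlap, with untreated non-diabetic mice the highest and treated mice the lowest. The differences were -0.54 and -0.56 in diabetic over untreated non-diabetic mice (limma adjusted p = 0.792 and 0.902), and -1.02 and -1.53 in treated over untreated non-diabetic mice (limma adjusted p = 0.133 and 0.180).

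**Figure D3:**
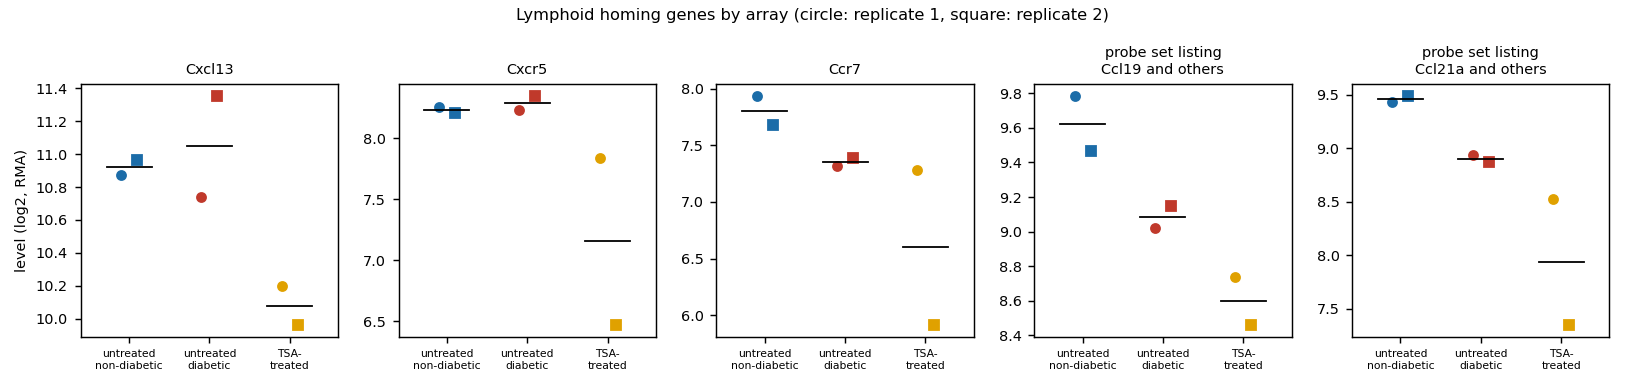
Level (y axis, log2 RMA, a separate scale per panel) of the homing members and of the shared probe sets that list Ccl19 and Ccl21a, by group; circles and squares are replicates 1 and 2 and bars are group means. TSA-treated arrays are the lowest in every panel, and their replicate 2 lies below replicate 1.

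B cell, T cell and stromal markers were lower on the same arrays, where 21.5% of all probe sets lay lower and 26.3% higher. All 7 measured B cell markers of 8 listed were lower on both treated arrays than on both untreated non-diabetic arrays (median difference -1.24, from -3.10 to -0.81), as were 6 of 7 measured T cell markers (median -0.78) and 6 of 9 reticular stromal cell markers (median -0.40), of which 1 was higher on both. Dendritic cell markers did not share this: of 6 measured, 1 was lower and 2 were higher on both treated arrays (median -0.02). The summed level of the stromal markers was 1900 and 1939 on the untreated non-diabetic, 1323 and 1454 on the diabetic and 989 and 884 on the treated arrays. For T cell markers it was 2272 and 2312, 1738 and 2117, and 1717 and 1177. Limma called none of these 23 genes in any comparison. LPE called Cd79a, Fcer2a and Dcn, all lower in treated than in untreated non-diabetic mice, where it called 1.59% of all probe sets. Of the stromal markers Lum had a mean level below the median probe set. Their part in the homing results was not tested, nor was that of the RNA ends.

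Among inflammatory axes, the CXCR3 ligands Cxcl9 and Cxcl10 were higher on both diabetic arrays. Cxcl9 read 7.64 and 7.63 on the untreated non-diabetic, 7.98 and 8.65 on the diabetic and 7.69 and 7.50 on the treated arrays. The difference of diabetic from untreated non-diabetic mice was 0.68 (SE 0.25, 95% interval 0.07 to 1.30, limma adjusted p = 0.793), and from treated mice 0.72 (limma adjusted p = 0.902). Treated and untreated non-diabetic mice overlapped. Diabetic replicate 2 was the highest array, and without it the first difference was 0.35 and the second 0.39. The other Cxcl9 probe set, much dimmer, went the opposite way at 4.54 and 4.32 on the untreated non-diabetic and 3.87 and 3.81 on the diabetic arrays, with a mean of 3.90 on the treated arrays.

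Cxcl10 read 5.09 and 4.93, 5.39 and 5.84, and 5.27 and 5.13, with no overlap of the 3 groups: diabetic arrays were the highest and untreated non-diabetic arrays the lowest. Its difference between diabetic and untreated non-diabetic mice was 0.61 (SE 0.21, 95% interval 0.10 to 1.12, limma adjusted p = 0.777), and 0.38 without diabetic replicate 2. Cxcl11, the third ligand, lay below the median probe set and went the other way, at 3.30 and 3.22, 3.12 and 3.14, and 3.43 and 3.65. Its lowest arrays were those of diabetic mice, whereas on a second, dimmer probe set, at 2.46 and 2.43, 2.77 and 2.61, and 2.47 and 2.65, the untreated non-diabetic arrays were the lowest. On the first, the difference of diabetic from treated mice was -0.41 (limma adjusted p = 0.902).

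Cxcr3, the receptor of all 3 on effector T cells and NK cells, read 6.94 and 6.92, 7.05 and 7.60, and 7.08 and 5.92. Diabetic arrays lay just above the untreated non-diabetic ones (difference 0.40, limma adjusted p = 0.994, 0.12 without diabetic replicate 2). The treated arrays lay on either side of them, and the difference of treated from untreated non-diabetic mice was -0.43 with all arrays and 0.15 without TSA-treated replicate 2. The median difference over the 4 genes of this axis was 0.50 in diabetic over untreated non-diabetic mice and 0.08 in treated over untreated non-diabetic mice. The summed level of 5 NK cell markers was 272 and 297 on the untreated non-diabetic, 409 and 582 on the diabetic and 285 and 287 on the treated arrays. The markers did not move together: 2 lay higher and 1 lower on both diabetic than on both untreated non-diabetic arrays (21.6% and 19.4% of all probe sets). Of the NK cell markers, Ncr1 and Prf1 had means below the median probe set. The part of NK cells in the CXCR3 values was not tested.

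**Figure D4:**
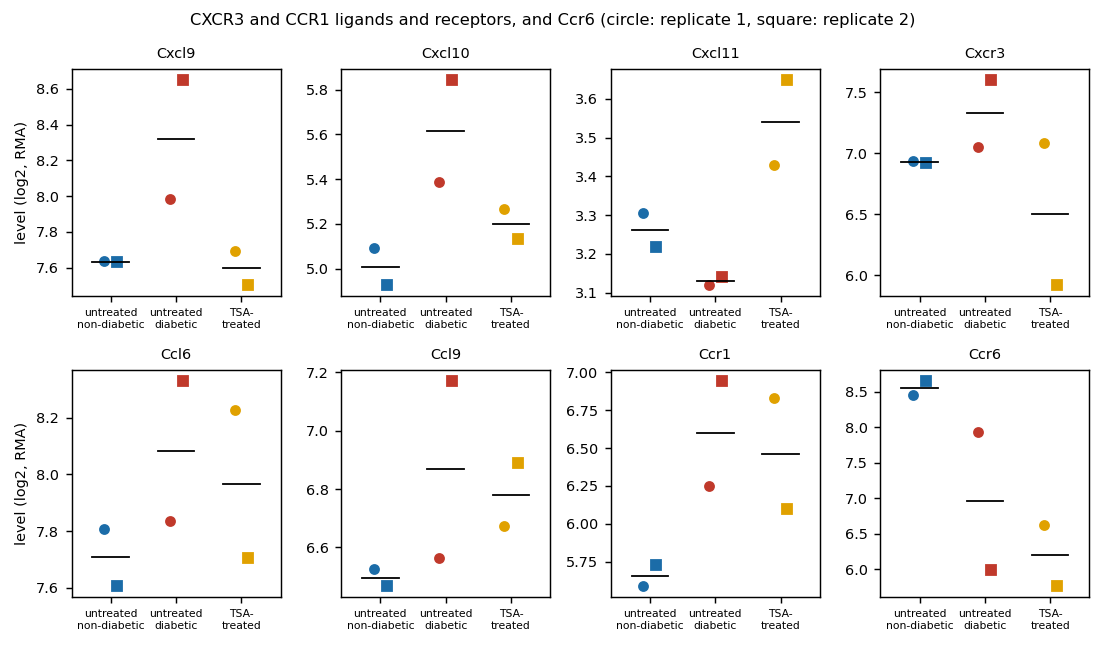
Level (y axis, log2 RMA, a separate scale per panel) of the CXCR3 ligands and receptor, of Ccl6, Ccl9 and Ccr1 and of Ccr6 by group; circles and squares are replicates 1 and 2 and bars are group means. Cxcl9 and Cxcl10 are highest on the diabetic arrays, Ccr1 is lowest on the untreated non-diabetic arrays, and Ccr6 is highest there.

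Ccr1, a receptor of monocytes and neutrophils for several CC ligands, was higher in both diabetic and treated mice than in untreated non-diabetic mice. It read 5.59 and 5.73 on the untreated non-diabetic, 6.25 and 6.95 on the diabetic and 6.83 and 6.10 on the treated arrays. All 4 diabetic and treated arrays were above both untreated non-diabetic arrays. The differences were 0.94 (SE 0.33, 95% interval 0.13 to 1.75, limma adjusted p = 0.784) and 0.80 (SE 0.33, 95% interval -0.01 to 1.61, limma adjusted p = 0.344), and diabetic and treated mice overlapped. The first was 0.59 without diabetic replicate 2, and the second 0.44 without TSA-treated replicate 1 and 1.17 without TSA-treated replicate 2. A second Ccr1 probe set, with a level near background, showed the same order at 3.08 and 2.85, 3.74 and 3.84, and 3.66 and 3.94.

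The ligands of this group with a level well above the median probe set were Ccl4, Ccl5, Ccl6, Ccl9 and Ccl24. Ccl5, a T cell and NK cell product, read 8.77 and 8.56, 8.80 and 8.86, and 8.47 and 7.75. Its treated arrays were the lowest and its diabetic arrays the highest, by 0.72 between the 2 groups (SE 0.26, limma adjusted p = 0.902) and by 0.36 without TSA-treated replicate 2. Ccl6, a myeloid ligand of CCR1, read 7.81 and 7.61, 7.84 and 8.33, and 8.23 and 7.71, and Ccl9, another, read 6.52 and 6.47, 6.56 and 7.17, and 6.67 and 6.89. The diabetic arrays of both were above the untreated non-diabetic ones, by 0.38 and 0.37 in the means (limma adjusted p = 0.913 and 0.895), but diabetic replicate 1 lay close to them and that of Ccl6 was 0.13 without diabetic replicate 2. A second Ccl6 probe set read 6.29 and 6.19, 6.66 and 7.13, and 7.12 and 6.85, with the diabetic and treated arrays above the untreated non-diabetic ones. Ccl4, a further ligand, overlapped between all groups at 4.89 and 5.34, 5.22 and 4.98, and 5.05 and 5.23.

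Ccl24, an eosinophil-attracting ligand of CCR3, read 5.28 and 5.42, 5.42 and 5.79, and 5.92 and 5.63, with both treated arrays above both untreated non-diabetic arrays (difference 0.42, limma adjusted p = 0.414). Ccr3, its receptor, gave a wide split between duplicates, at 3.95 and 3.62, 3.76 and 4.97, and 5.26 and 3.42. No direction can be read from it: its differences of 0.58 and 0.56 had an SE of 0.66. Over the 9 measured genes of this axis (Ccl3, Ccl4 and Ccl11 are the others), 8 had a higher mean in diabetic than in untreated non-diabetic mice, with a median of 0.30. Of all probe sets 52.3% had a higher mean there, and of all genes at their brightest probe set 57.2%.

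Neutrophil and erythroid markers were higher on the diabetic arrays. All 7 measured neutrophil markers lay higher on both diabetic than on both untreated non-diabetic arrays (21.6% of all probe sets did; median difference 0.64). On both treated arrays 3 of the 7 lay higher and 1 lower, and 4 had a higher mean. The neutrophil markers had a summed level of 20400 and 22190, 33110 and 34010, and 26200 and 24710 in the 3 groups, and a median log2 level of 10.80 and 10.65, 11.26 and 11.31, and 10.69 and 10.60. Erythroid markers summed to 14150 and 14080, 19600 and 20380, and 27320 and 20380, and 7 monocyte and macrophage markers to 4767 and 4842, 5464 and 5982, and 6089 and 5833. Of the latter, 5 lay higher and 1 lower on both diabetic than on both untreated non-diabetic arrays (21.6% and 19.4% of all probe sets). On both treated arrays 4 lay higher and 1 lower (26.3% and 21.5% of all), with differences from -1.99 to 1.47. Of 7 erythroid markers, 6 lay higher and 0 lower on both diabetic arrays, and 6 and 0 on both treated arrays. Limma called none of these 21 genes. LPE called S100a9, Tfrc and Hemgn higher in diabetic and Epb42 higher in treated mice than in untreated non-diabetic mice. In these comparisons it called 0.477% and 1.59% of all probe sets. The part of these markers in the Ccr1 values was not tested.

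Ccr6, the receptor for CCL20 on B cells, some dendritic cells and T helper 17 cells, had the largest difference of the members in both comparisons with untreated non-diabetic mice. It read 8.46 and 8.66 on the untreated non-diabetic, 7.93 and 5.98 on the diabetic and 6.63 and 5.76 on the treated arrays. All 4 diabetic and treated arrays lay below both untreated non-diabetic arrays, but the diabetic duplicates differed by more than 1 from each other and overlapped with the treated ones. The difference of treated from untreated non-diabetic mice was -2.37 (SE 0.64, 95% interval -3.94 to -0.80, limma adjusted p = 0.203, LPE adjusted p = 0.00375), and -1.93 without TSA-treated replicate 2. That of diabetic from untreated non-diabetic mice was -1.60 (SE 0.64, 95% interval -3.17 to -0.04, limma adjusted p = 0.796), and -0.63 without diabetic replicate 2.

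Its ligand Ccl20 stayed near the median probe set, at 3.92 and 3.97, 3.89 and 4.02, and 4.05 and 4.63. TSA-treated replicate 2 was the highest array, and the difference of treated from untreated non-diabetic mice was 0.39 (limma adjusted p = 0.498). Several further members had this shape of 1 high array. Ccl28, a mucosal ligand, read 5.05 and 4.97, 5.25 and 5.06, and 5.21 and 5.86; Ccl1 read 3.87 and 3.86, 4.09 and 3.84, and 4.07 and 4.53. Its receptor Ccr8 read 3.29 and 3.10, 2.95 and 3.23, and 3.41 and 4.28.

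In treated over untreated non-diabetic mice these differences were 0.52 for Ccl28, 0.43 for Ccl1 and 0.65 for Ccr8 (limma adjusted p = 0.401, 0.424 and 0.411). Each was 0.20 to 0.21 without TSA-treated replicate 2. The other Ccl28 probe sets, with means of 2.59 and 3.02, below the median probe set, did not share the rise. Their differences were -0.09 and -0.24. Ccl27a, a skin ligand, read 3.61 and 3.56, 2.92 and 3.41, and 3.38 and 2.85, with both diabetic and both treated arrays under the untreated non-diabetic ones, all below the median probe set. Of the probe sets that list Ccl27a with other genes, one also had its diabetic arrays under the untreated non-diabetic ones, though not both treated arrays, at 4.38 and 4.28, 4.15 and 4.18, and 4.34 and 4.18. The groups overlapped in the other, at 4.82 and 4.94, 4.90 and 4.95, and 4.90 and 4.80. Ccr10, the receptor of CCL27 and CCL28, read 3.37 and 3.17, 3.36 and 3.30, and 3.21 and 3.22, with an overlap of the untreated groups. The median over the 12 genes of the T helper and mucosal axes was 0.05, 0.08 and 0.00 in the 3 comparisons.

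Cxcl12, the homeostatic ligand that retains progenitors and plasma cells, read 9.95 and 9.95, 9.51 and 9.98, and 9.56 and 9.72. Both treated arrays lay under both untreated non-diabetic ones (difference -0.31, SE 0.21, limma adjusted p = 0.562). In a second, dimmer Cxcl12 probe set, with a mean of 8.49, the diabetic arrays lay under the untreated non-diabetic ones as well. There the difference from untreated non-diabetic mice was -0.61 in diabetic and -0.61 in treated mice (limma adjusted p = 0.813 and 0.395). The diabetic and treated arrays of that probe set overlapped. Cxcr4, the receptor of CXCL12, read 8.48 and 8.61, 8.82 and 8.91, and 8.51 and 7.83, with diabetic arrays above the 4 others. Its difference between diabetic and treated mice was 0.70 (SE 0.25, 95% interval 0.08 to 1.32, limma adjusted p = 0.902), and 0.36 without TSA-treated replicate 2.

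Cxcl16, a membrane-bound ligand, read 6.66 and 6.45, 6.74 and 6.67, and 6.52 and 5.40. Only TSA-treated replicate 2 departed from the rest. The difference of treated from untreated non-diabetic mice was -0.59 (limma adjusted p = 0.521), -0.04 without that array and -1.15 without TSA-treated replicate 1. Cxcr6, its receptor on memory T cells and NKT cells, read 5.23 and 5.30, 5.29 and 5.72, and 4.87 and 4.88. Here both treated arrays lay below the 4 others. A second Cxcr6 probe set did not share this, at 4.93 and 5.09, 5.68 and 6.05, and 5.42 and 3.90. In the first, the difference was -0.39 from untreated non-diabetic mice (SE 0.20, limma adjusted p = 0.434, -0.40 without TSA-treated replicate 2), and that of diabetic from treated mice was 0.63 (SE 0.20, limma adjusted p = 0.902).

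The median over 6 genes of the CXCR2 axis, which draws neutrophils, was 0.00 in diabetic over untreated non-diabetic mice, 0.24 in treated over untreated non-diabetic mice and -0.20 in diabetic over treated mice. Of the 6, Cxcl2, Cxcl3, Cxcl15 and Cxcr2 had means below the median probe set, and Cxcl5 had a mean of 4.23, near it. Cxcl1, a neutrophil attractant, read 6.19 and 6.19, 6.01 and 6.28, and 6.09 and 7.11, so that TSA-treated replicate 2 alone was high. A second Cxcl1 probe set above the median probe set did not share this, at 5.76 and 6.17, 5.92 and 5.66, and 5.88 and 5.92. Ccr2, the monocyte receptor, read 6.70 and 6.68, 6.76 and 6.70, and 6.60 and 7.53, with TSA-treated replicate 2 alone high. Its 3 dimmer probe sets did not share this shape: they read 5.68 and 5.78, 6.18 and 5.66, and 5.58 and 5.66, then 3.97 and 4.14, 4.47 and 4.82, and 3.86 and 4.46, and last 3.11 and 3.10, 3.64 and 3.40, and 3.04 and 2.88. In the latter pair both diabetic arrays were the highest. The median over 5 genes listed for monocytes, Ccr2 and Ccl8 among them, was 0.04 in diabetic and -0.10 in treated over untreated non-diabetic mice. Ccl8 read 5.23 and 5.29, 5.34 and 5.58, and 5.13 and 4.82. This put its diabetic arrays above and its treated arrays below the others, by 0.49 between the 2 groups (limma adjusted p = 0.902).

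Of the members near or below the median probe set, Ccl3, a ligand of CCR1, read 3.56 and 3.59, 3.73 and 4.02, and 3.92 and 3.84, and Cxcl3, a neutrophil attractant, 2.51 and 2.32, 2.73 and 2.79, and 2.55 and 2.97. In both, the diabetic and treated arrays lay above the untreated non-diabetic ones, by 0.30 and 0.30 for Ccl3 and by 0.34 and 0.35 for Cxcl3. The limma adjusted p was 0.872 and 0.490 for Ccl3 and 0.872 and 0.493 for Cxcl3. Ccr9, the gut and thymus homing receptor, ranged from 5.90 to 6.17 over the 6 arrays, and Ccl22, a ligand of CCR4, from 5.65 to 5.79. The other Ccr9 probe sets all had means below the median probe set, from 2.68 to 3.16. Limma's 95% intervals lay within -1 and 1 for 32 of the 45 members in diabetic over untreated non-diabetic, 31 in treated over untreated non-diabetic and 30 in diabetic over treated mice, with a median width to either side of 0.539. These intervals are not adjusted for the number of genes. After adjustment, differences well above that width were not called by limma, such as -2.37 for Ccr6 in treated over untreated non-diabetic mice.

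Many members lie in clusters on the chromosomes. Chromosome 11 holds 14 members, most of them CC ligands, chromosome 5 holds 10, most of them CXC ligands, and chromosome 9 holds 8, all of them receptors. Cxcl9, Cxcl10 and Cxcl11 follow each other on chromosome 5. The median difference of diabetic over untreated non-diabetic mice was 0.13, 0.11 and 0.05 on the 3 chromosomes, and that of treated over untreated non-diabetic mice was -0.07, 0.24 and 0.17.

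Limma called 0 of the other genes of the pathway in any comparison. LPE called Rac2, Coro1a and Ltb, all lower in treated than in untreated non-diabetic mice (LPE adjusted p = 0.000127, 0.0266 and 0.0233, where 1.59% of all probe sets were called). It also called Rac2 lower in treated than in diabetic mice (LPE adjusted p = 0.0473, where 0.115% of all were called). LPE takes the spread from probe sets of a similar level and not from the gene's own duplicates, which for treated mice lie far apart in Rac2, as given below. Of 14 related genes whose symbols the naming rule does not take (XC and CX3C chemokines, platelet chemokines, atypical receptors), 1 was higher at an unadjusted p under 0.05 in treated over untreated non-diabetic mice and 2 were lower (14.7% of all probe sets passed it, 8.34% lower). Ccrl2, an atypical receptor that binds chemerin, read 5.86 and 5.65, 6.37 and 6.25, and 7.21 and 6.83. Its 3 groups did not overlap, and the difference of treated from untreated non-diabetic mice was 1.26 (SE 0.20, 95% interval 0.77 to 1.74, limma adjusted p = 0.108). Rarres2, which encodes chemerin, read 7.54 and 7.46, 7.22 and 7.71, and 7.09 and 6.55 (difference -0.68, limma adjusted p = 0.315).

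Of 16 measured genes of receptor signaling, 8 were lower on both treated arrays than on both untreated non-diabetic arrays and 3 higher (21.5% and 26.3% of all probe sets), with a median of -0.34; at an unadjusted p under 0.05 limma had 4 lower and 1 higher. Coro1a, an actin regulator needed for lymphocyte migration, read 12.09 and 11.90, 11.60 and 11.22, and 10.61 and 10.25. The 3 groups did not overlap, and the treated group was lower by 1.56 than the untreated non-diabetic one (difference -1.56, SE 0.22, limma adjusted p = 0.0978). Rac2, a small GTPase of blood cells that drives cell movement, read 9.95 and 9.83, 9.66 and 9.58, and 9.01 and 5.40, where TSA-treated replicate 2 was lower than its duplicate by more than any other group's arrays differed.

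Lymphotoxin from lymphocytes induces the homing chemokines in stromal cells, and 8 of 13 measured genes of this pathway were lower on both treated arrays (21.5% of all probe sets were) and 0 higher (26.3%), with a median of -0.52. Ltb, which encodes lymphotoxin beta, read 10.09 and 10.08 on the untreated non-diabetic, 9.67 and 9.27 on the diabetic and 8.59 and 7.87 on the treated arrays. Again the groups did not overlap, in the order untreated non-diabetic, diabetic, treated; the difference of treated from untreated non-diabetic mice was -1.85 (SE 0.28, 95% interval -2.54 to -1.16, limma adjusted p = 0.105). Relb, a transcription factor downstream of its receptor, read 6.41 and 6.19, 6.39 and 5.72, and 5.68 and 4.42 (difference -1.26, limma adjusted p = 0.283). Limma called 0 of the 13, with 5 lower at an unadjusted p under 0.05 (8.34% of all probe sets). B cells also make Ltb, and the part of the lower B cell marker levels in its values was not tested.

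**Figure D5:**
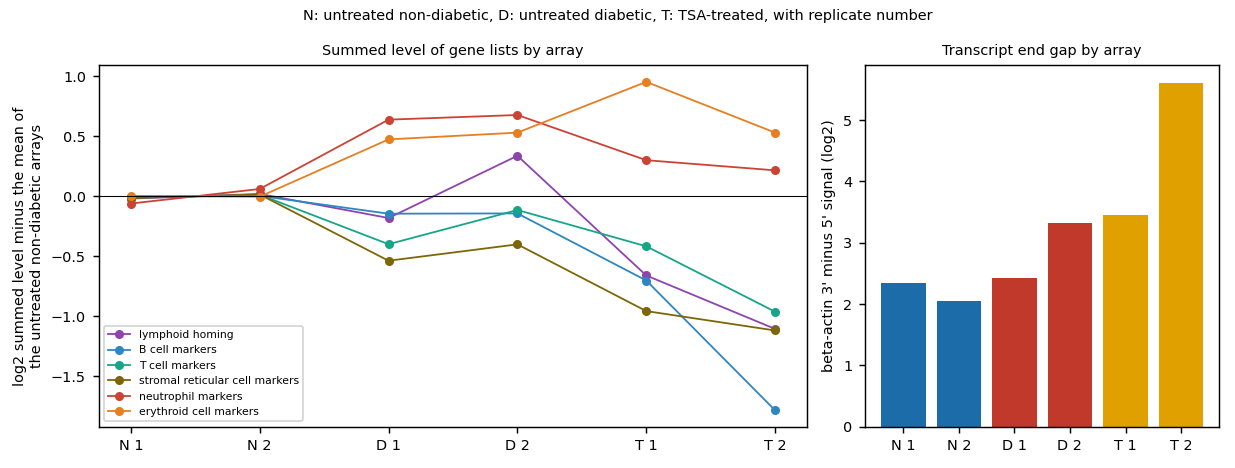
Left, summed linear level of gene lists on each array (y axis, log2, relative to the mean of the untreated non-diabetic arrays); right, beta-actin 3′ minus 5′ signal (log2) on the same arrays. Homing members, B cell, T cell and stromal markers are below 0 on both TSA-treated arrays, neutrophil and erythroid markers are above 0 on all 4 diabetic and treated arrays, and the gap between transcript ends is largest on TSA-treated replicate 2.

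Where a member had further probe sets above the median probe set (9 probe sets of 8 genes), the sign of the difference was the same as that of the member in 8 of 9 for diabetic over untreated non-diabetic, in 7 for treated over untreated non-diabetic and in 4 for diabetic over treated mice.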

How the data were processed

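Spleen RNA pools of 3 groups were hybridized in duplicate to Affymetrix mouse genome arrays. Per the methods, the authors applied quantile normalization and then RMA (Robust Multi-array Average, which turns the probes of a gene into 1 value) in S+Array Analyzer. What they deposited is a log2 level per probe set and array. The table has 45101 probe sets; 64 are Affymetrix controls and entered no test. There was no threshold on level. In the annotation of the platform, 34945 of the others name 1 gene, 932 several and 9160 none. Array medians were between 3.79 and 3.95, and 2 arrays a group limit the precision.

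One limma 3.58.1 model (R 4.3.3) held the 6 arrays (a mean for each group, 3 residual and 2.94 prior degrees of freedom), with Benjamini-Hochberg adjustment over all probe sets of a comparison and calls at an adjusted p under 0.05. Groups came from the sample titles. The members, gene lists and tests were chosen with earlier results of these data known. Array values are printed for the homing genes, members called by limma or LPE, and the 10 with the highest mean. They are also printed for the 4 with the largest rise and fall among arrays without overlap in each comparison, and for receptors of such ligands. Ccr2, Ccl8, Ccl9, Ccl24 and Cxcl1 were added after their values were seen. The values of Ccl3, Ccl4 and Cxcl3 and the ranges of Ccr9 and Ccl22 are also outside this rule. The alternatives were the replicate number as a block, each array left out, the 2 groups alone, LPE (rewritten from its published description, with 100 bins), the methods' t-test, an intensity trend, renewed quantile normalization, median centring, a filter on level and other choices of probe set. Tests were tested on simulated data. Genes of the families without a probe set of their own were not analysed here.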

Additional observations from a re-analysis of the deposited data

How the results depend on the processing

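No setting tried called a member in any comparison, except as follows. Without TSA-treated replicate 1 limma called 3 in treated over untreated non-diabetic mice (Ccr7 -1.90, Cxcl16 -1.15, Cxcr5 -1.76), 3 in diabetic over treated mice (the same genes, at 1.44, 1.30 and 1.82) and 2 by the F test, so that the calls left after dropping 1 array ranged from 0 to 3, 0 to 3 and 0 to 2, and were 0 throughout in diabetic over untreated non-diabetic mice. LPE called 1 (Ccr6). Without diabetic replicate 2 and TSA-treated replicate 2 together, a setting chosen after seeing the data, limma called 3 in treated over untreated non-diabetic mice (Ccr1 1.17 and Ccr3 1.48 higher, Ccr6 -1.93 lower) and 1 by the F test. The cause was not tested.

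With each array left out in turn, the median difference of treated over untreated non-diabetic mice ranged from -0.0359 to 0.124 over the members, from -1.76 to -0.52 over the homing members and from -0.0195 to 0.148 over the others. In diabetic over treated mice these ranged from 0.0317 to 0.177, from 0.449 to 1.44 and from -0.0003 to 0.155, and in diabetic over untreated non-diabetic mice from 0.07 to 0.12, from -0.18 to 0.11 and from 0.08 to 0.16. With both arrays out, the medians were -0.0359, -0.52 and -0.0195 in treated over untreated non-diabetic mice, and 0.39 (homing) and 0.13 (others) in diabetic over treated mice. Without TSA-treated replicate 2, alone or with diabetic replicate 2, Cxcr3 in treated over untreated non-diabetic mice turned to 0.15; the range with 1 array out was -1.01 to 0.15. Ccr6 in diabetic over treated mice turned to -0.21 without diabetic replicate 1 (range with 1 array out -0.21 to 1.74). With both arrays out, Cxcr3, Ccl1 and Ccl28 in that comparison turned to -0.0310, 0.0236 and 0.0365. For the named genes, 1094 other values kept their direction and side of the threshold, or were too small beside their SE to have a direction.

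Replicates share only a number across groups, and with the replicate block limma called 0 members in each comparison and 0 by the F test. The replicate 1 minus 2 differences correlated over probe sets at -0.335 (untreated groups), -0.0363 (untreated non-diabetic and treated) and -0.105 (diabetic and treated). Signal near background limits the 17 members at or below the median probe set.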
